A study of Mus musculus with 24 samples.

Results

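The 9 genes described here are the adult globin genes Hba-a1, Hba-a2, Hbb-bs and Hbb-bt, the carbonic anhydrase genes Car1 and Car2, and 3 genes of erythroid regulation, Klf1, Gata1 and Hemgn. They are 9 of the 55376 genes in the count files. They were chosen by name for their place in the erythroid program and because the measured levels of Hbb-bt and Car1 were higher in young TTPdeltaARE hematopoietic stem cells (HSCs) than in wild-type (WT) ones, so the genotype difference in young HSCs is given below as a description without a test. The 24 bulk mRNA-seq libraries came from male mice, either WT or homozygous for TTPdeltaARE, an allele of Zfp36 without the AU-rich element that shortens the life of its mRNA. Zfp36 encodes tristetraprolin (TTP), a protein that binds AU-rich elements of mRNAs and speeds their decay. The allele is carried in every cell of the animal. HSCs were sorted from bone marrow as lineage-negative Sca-1+ c-Kit+ (LSK) cells negative for CD34 and Flk2 and positive for CD150. They make up 4 young WT libraries (Y-WT), 4 young TTPdeltaARE libraries (Y-TTPdeltaARE), 5 middle-aged WT libraries (M-WT) and 3 middle-aged TTPdeltaARE libraries (M-TTPdeltaARE). MPP3s, LSK progenitors biased to granulocytes and monocytes, were sorted from young mice only, with 4 libraries of each genotype. Nothing in the sources ties a library to a single animal or a pool, so the p-values below measure the spread between these libraries.

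Red cells are made from HSCs through progenitors that progressively switch on the erythroid program. GATA1 and KLF1 are its central transcription factors, and both act on the globin loci, with GATA1 binding GATA motifs and KLF1 binding CACCC boxes. Adult hemoglobin is built from alpha chains, which Hba-a1 and Hba-a2 encode, and beta chains, which Hbb-bs and Hbb-bt encode. Carbonic anhydrases interconvert carbon dioxide and bicarbonate, and Car1 and Car2 supply the enzymes of the red cell. HSCs and MPP3s stand before erythroid commitment, and the sort gates were not set to collect red cell precursors, whose main mRNAs are globins. The purity of the sorted cells was not tested here.

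On GRCm38, with the gene models of GENCODE M21, the alpha globin genes lie on the plus strand of chromosome 11, Hba-a1 at chr11:32283511-32284465 and Hba-a2 at chr11:32296489-32297298. The beta globin genes lie on the minus strand of chromosome 7, Hbb-bs at chr7:103826534-103828096 and Hbb-bt at chr7:103812524-103813996. Car1 (chr3:14766216-14808368, minus strand) and Car2 (chr3:14886273-14900770, plus strand) are both on chromosome 3. Klf1 is at chr8:84901928-84905291 and Gata1 at chrX:7959260-7978071. Hemgn is at chr4:46393989-46413506.

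The members of each globin pair share sequence. Over the 150 bases before the start site, Hba-a1 and Hba-a2 were identical at 98% of positions and Hbb-bs and Hbb-bt at 76.7%. Of the 100-base windows along the annotated transcripts, 63.29% of those in Hba-a1 and 79.51% of those in Hba-a2 were also found in the other alpha gene, and 49.7% in Hbb-bs and 54.8% in Hbb-bt were also found in the other beta gene. How the authors' counting split reads between such copies is not stated in the sources used here, and the values within a pair carry that uncertainty. The proximal promoters of the beta genes are shown because their levels followed different patterns below. Both stretches are read on the minus strand of GRCm38.p6 (RefSeq), Hbb-bs at chr7:103828003-103828032 and Hbb-bt at chr7:103814012-103814041. The capitals mark a match to the CACCC box pattern CCNCNCCC.
Hbb-bs: attccgtagagCCACACCCtggtaagggcc
Hbb-bt: catctctgaagCCTCACCCtgcagggtaac
The box of Hbb-bs begins 93 bases before the RefSeq start and that of Hbb-bt 107 bases before it. The Hbb-bt stretch lies outside the GENCODE gene model, while part of the Hbb-bs stretch falls in the first, untranslated exon of a longer transcript model of that gene. Only Hbb-bs, of the 7 members with a promoter in the RefSeq table, held the stricter form CCACACCC, which 3.56% of all 32851 promoters held within 250 bases before and 50 bases after the start on either strand. The looser form CCNCNCCC, which includes the stricter one, was found in Hbb-bs, Hbb-bt, Gata1 and Hemgn and in 49.5% of all promoters. The GATA motif AGATAA was found in Hbb-bs and Hemgn (11.2% of all promoters) and TGATAA in Hba-a1, Hba-a2, Klf1 and Hemgn (9.05%). Car1 and Car2 had no promoter entry.

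The libraries held between 24261371 and 39934554 counts, with a median of 34817620.5. Levels are given as CPM, the count scaled to the library total after TMM scaling, and levels of different genes are compared only as CPM per kilobase of exon. Zfp36 itself was higher in TTPdeltaARE than in WT in all 3 settings, at 94.9 ± 8.33 against 47.5 ± 17.3 CPM in young HSCs (SD, n = 4 and 4), 102 ± 5.79 against 50.2 ± 7.23 in middle-aged HSCs (n = 3 and 5) and 104.9 ± 19.2 against 29.5 ± 7.32 in MPP3s (n = 4 and 4), with no overlap. Group means of Slamf1, which encodes CD150, were 57.6 to 122 CPM in the HSC groups and 1.66 to 2.35 in the MPP3 groups. Means of Mpo, the myeloperoxidase gene of granulocyte precursors, were 0.54 to 3.56 CPM in the HSC groups and 658 to 1412 in the MPP3 groups. Of genes of maturing red cells, Slc4a1 (the anion exchanger band 3) had group means of 0.0384 to 0.855 CPM. Alas2 (the erythroid enzyme that starts heme synthesis) had means of 0.614 to 1.97 CPM. In Y-TTPdeltaARE MPP3s Alas2 ran from 0.0428 to 4.81 CPM over the libraries. Other red cell membrane genes differed in level, with group means of 0.624 to 10.3 CPM for Ermap, 0.276 to 2.78 for Kel and 112 to 156 for Gypc.

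All 9 genes passed the filter on low counts in every comparison. Tests used edgeR's quasi-likelihood fit over all genes of the libraries compared, with p-values adjusted by the Benjamini-Hochberg method. A gene counted as called where its average log2 CPM (logCPM) was above 1.5, its fold change above 1.2 and its adjusted p below 0.05. Between genotypes, 1 of the 9 genes was called in middle-aged HSCs, where 1.41% of 21136 genes were, and 2 of 9 in MPP3s, where 1.71% of 19023 genes were. In young HSCs, 6 of 24381 genes were called (0.0246%). No count of the 9 genes is given there, since they were chosen on these libraries. Between MPP3s and HSCs, 2 of 7 genes were called in WT, against 22.2% of 22816 genes, and 2 of 7 in TTPdeltaARE, against 16.3% of 21478. Between middle-aged and young HSCs, 4 of 7 were called in WT, against 12.1% of 22280 genes, and 2 of 7 in TTPdeltaARE, against 8.22% of 23336. Hbb-bt and Car1 are left out of these 4 counts because they were chosen on the young HSC libraries that enter them. The comparisons by cell type and by age share those libraries with the choice of the genes. Their sides also come from separately numbered sets of libraries, so age or cell type and the set of libraries cannot be told apart.

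**Figure D1:**
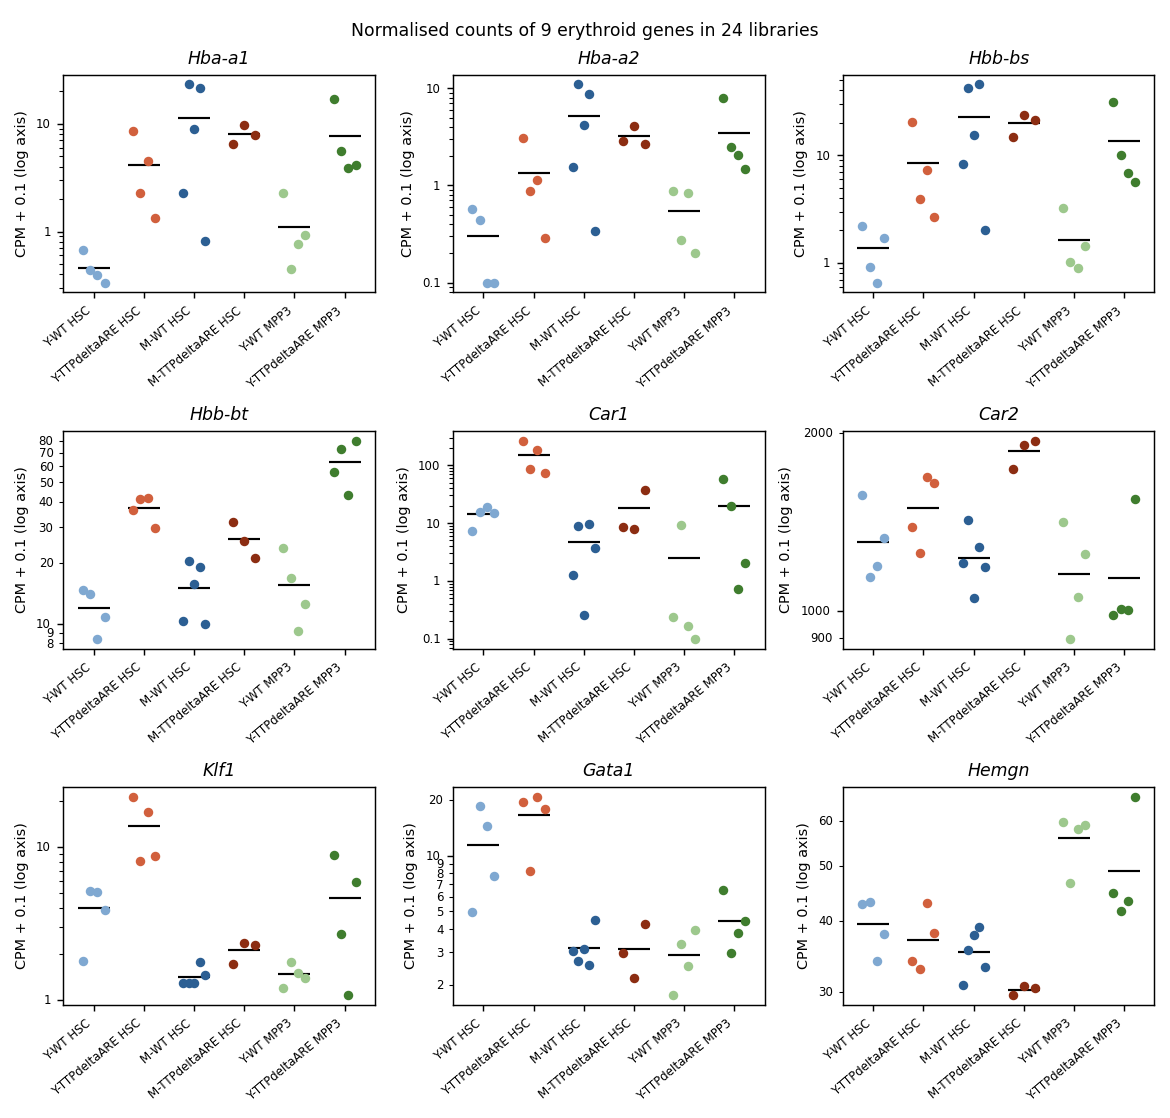
Level of the 9 genes (CPM plus 0.1, log axis) by group, where each point is 1 of the 24 libraries and each bar the group mean. Hbb-bt is higher in every TTPdeltaARE library than in the WT libraries of the same cells and age, and Car2 lies between 897 and 1938 CPM in every library.

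Hbb-bt, the minor of the adult beta-chain genes, was higher in every TTPdeltaARE library than in the WT libraries of the same cells and age, and passed the test in MPP3s. In young HSCs it stood at 14.6, 13.9, 8.32 and 10.7 CPM in the WT libraries and at 36.4, 41.4, 41.6 and 29.6 in the TTPdeltaARE libraries, a log2 fold change of 1.60 ± 0.18 (SE). Every TTPdeltaARE library was above every WT library. This is the difference that chose the gene.

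In MPP3s, Hbb-bt was at 23.5, 16.7, 9.08 and 12.4 CPM in WT and at 56.2, 72.4, 43.1 and 80.1 in TTPdeltaARE. The groups did not overlap, and Hbb-bt rose 3.97-fold (log2 fold change 1.99 ± 0.28, edgeR adjusted p = 0.00457). In middle-aged HSCs it was at 10.2, 20.2, 15.5, 18.9 and 9.89 CPM in WT and at 31.6, 25.5 and 21.1 in TTPdeltaARE. Again every TTPdeltaARE library was above every WT library, but the log2 fold change of 0.76 ± 0.22 did not pass (edgeR adjusted p = 0.126). In that comparison it passed with DESeq2, at an adjusted p of 0.0105, and with no filter on low counts, at 0.000348.

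By group mean, Hbb-bt was highest in Y-TTPdeltaARE MPP3s (63 ± 16.6 CPM, SD), then in Y-TTPdeltaARE HSCs (37.3 ± 5.6) and M-TTPdeltaARE HSCs (26.1 ± 5.28), and lower in Y-WT MPP3s (15.4 ± 6.23), M-WT HSCs (14.9 ± 4.78) and Y-WT HSCs (11.9 ± 2.89). The Y-TTPdeltaARE MPP3s did not overlap the next group in this order. Y-TTPdeltaARE and M-TTPdeltaARE HSCs overlapped, and so did the 3 WT groups. M-TTPdeltaARE HSCs and Y-WT MPP3s also overlapped, with Y-WT MPP3 replicate 1 (23.5 CPM) above M-TTPdeltaARE HSC replicate 3 (21.1 CPM).

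Hbb-bs, the major beta-chain gene of adult red cells, followed another order. In MPP3s it was at 3.1, 0.925, 0.804 and 1.35 CPM in WT and at 31.3, 9.89, 6.76 and 5.52 in TTPdeltaARE. No library overlapped, TTPdeltaARE replicate 1 was more than 3 times the next, and Hbb-bs rose 8.79-fold (log2 fold change 3.14 ± 0.66, edgeR adjusted p = 0.0424). This call was lost when any of WT replicates 2, 3 and 4 or TTPdeltaARE replicates 1 and 2 was left out. Without TTPdeltaARE replicate 1 the log2 fold change was 2.24 (edgeR adjusted p = 0.0965).

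In middle-aged HSCs the 5 WT libraries alone spanned 1.94 to 45.2 CPM of Hbb-bs (8.14, 42.3, 15.2, 45.2 and 1.94), and the TTPdeltaARE libraries at 14.6, 23.6 and 21.1 lay inside that range. The log2 fold change was -0.22 ± 0.71 (edgeR adjusted p = 0.908). In young HSCs Hbb-bs was at 2.12, 0.817, 0.557 and 1.6 CPM in WT and at 20, 3.81, 7.15 and 2.59 in TTPdeltaARE, with a log2 fold change of 2.69 ± 0.67 and no overlap.

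With age, Hbb-bs rose 17-fold in WT HSCs (log2 fold change 4.09 ± 0.85, edgeR adjusted p = 0.00886), although the lowest middle-aged library lay within the young range. In TTPdeltaARE HSCs the log2 fold change with age was 1.2 ± 0.56 (edgeR adjusted p = 0.256), and without Y-TTPdeltaARE HSC replicate 1 it was 2.15 (edgeR adjusted p = 0.00222). By mean the order was M-WT HSCs (22.5 ± 19.9 CPM, SD), M-TTPdeltaARE HSCs (19.8 ± 4.63), Y-TTPdeltaARE MPP3s (13.4 ± 12.1), Y-TTPdeltaARE HSCs (8.39 ± 7.99), Y-WT MPP3s (1.55 ± 1.07) and Y-WT HSCs (1.27 ± 0.718), and each group overlapped its neighbors in it. Hbb-bs did not pass between MPP3s and HSCs in WT (log2 fold change 0.20 ± 0.60, edgeR adjusted p = 0.812) or in TTPdeltaARE (0.59 ± 0.72, edgeR adjusted p = 0.69).

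The alpha chain genes, like Hbb-bs, had their highest group mean in M-WT HSCs (11.2 ± 10.4 CPM for Hba-a1 and 5.06 ± 4.58 for Hba-a2, SD, n = 5). Hba-a1 was at 2.19, 0.347, 0.67 and 0.83 CPM in WT MPP3s and at 17, 5.45, 3.76 and 4.02 in TTPdeltaARE MPP3s. The groups did not overlap and TTPdeltaARE replicate 1 was again the highest, but the log2 fold change of 2.93 ± 0.67 missed the threshold (edgeR adjusted p = 0.0633). It passed with DESeq2, with the likelihood ratio test, with no filter on low counts, in a fit of all 24 libraries, with a replicate block and without WT replicate 1. Without TTPdeltaARE replicate 1 the log2 fold change was 2.11 (edgeR adjusted p = 0.205).

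Hba-a2 was at 0.776, 0.173, 0.737 and 0.104 CPM in WT MPP3s and at 7.82, 2.41, 1.95 and 1.37 in TTPdeltaARE MPP3s, with no overlap and a log2 fold change of 2.98 ± 0.78 (edgeR adjusted p = 0.114). Its average logCPM of 0.86 was under the limit for a call.

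In middle-aged HSCs neither alpha gene separated the genotypes. Hba-a1 was at 2.16, 23, 8.84, 21.2 and 0.717 CPM in WT and at 6.32, 9.61 and 7.69 in TTPdeltaARE (log2 fold change -0.53 ± 0.80, edgeR adjusted p = 0.779). Hba-a2 ran from 0.239 to 10.9 CPM in WT, around the 2.58 to 3.97 of TTPdeltaARE (-0.73 ± 0.79, edgeR adjusted p = 0.687). M-WT replicates 2 and 4 had the highest levels of Hba-a1, Hba-a2 and Hbb-bs, and replicate 5 the lowest.

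In young HSCs Hba-a1 was at 0.577, 0.34, 0.297 and 0.236 CPM in WT, or 22, 10, 8 and 8 counts, and at 8.48, 2.18, 4.4 and 1.23 in TTPdeltaARE. The log2 fold change was 3.45 ± 0.63 with no overlap. Hba-a2 had 18 and 10 counts in Y-WT replicates 1 and 2 and 0 in replicates 3 and 4, which allows up to 0.111 and 0.0886 CPM there. The TTPdeltaARE libraries were at 2.99, 0.786, 1.04 and 0.185 CPM of Hba-a2 and overlapped the WT ones.

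With age, Hba-a1 rose 29.5-fold in WT HSCs (log2 fold change 4.88 ± 1.00, edgeR adjusted p = 0.00808) and Hba-a2 23.3-fold (4.54 ± 1.17, edgeR adjusted p = 0.0221). For Hba-a2 the lowest M-WT library, at 0.239 CPM, lay within the Y-WT range of 0 to 0.472. The size of its fold rests on the few counts of the Y-WT libraries. The call of Hba-a2 was lost without M-WT replicate 2, Y-WT replicate 2 or Y-WT replicate 4, at log2 fold changes of 4.09, 4.83 and 4.12 (edgeR adjusted p = 0.0562, 0.0547 and 0.0571). Without M-WT replicate 4 (4.28, edgeR adjusted p = 0.0328) and in the fit of all 24 libraries (4.58, edgeR adjusted p = 0.012) it was lost because the average logCPM was under the limit. In TTPdeltaARE HSCs the log2 fold changes with age were 0.92 ± 0.51 for Hba-a1 (edgeR adjusted p = 0.354) and 1.27 ± 0.65 for Hba-a2 (0.303). Without Y-TTPdeltaARE HSC replicate 1 that of Hba-a1 was 1.62 (edgeR adjusted p = 0.0226). Between MPP3s and HSCs, Hba-a1 and Hba-a2 did not pass in either genotype, with log2 fold changes of 1.38 ± 0.71 and 0.99 ± 1.36 in WT and 0.81 ± 0.66 and 1.35 ± 0.80 in TTPdeltaARE.

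**Figure D2:**
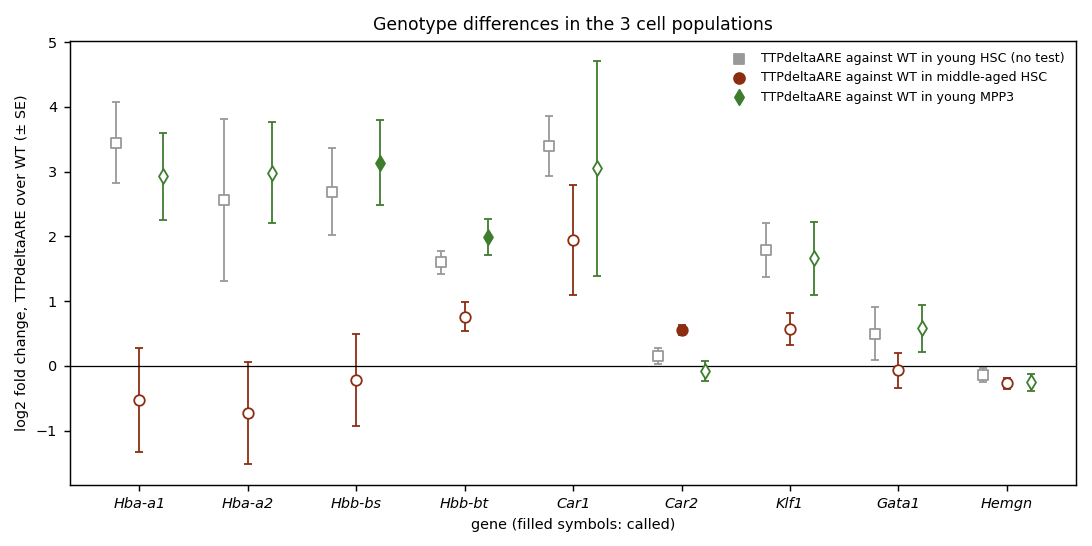
Log2 fold change of TTPdeltaARE against WT for each of the 9 genes, with bars of 1 SE, in young HSCs, middle-aged HSCs and young MPP3s, from edgeR, with called genes filled. The values of young HSCs are a description, and in middle-aged HSCs Hba-a1 (-0.53), Hba-a2 (-0.73) and Hbb-bs (-0.22) lie on the other side of 0 from the values in MPP3s (2.93, 2.98 and 3.14).

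The genotype difference itself was compared between MPP3s and middle-aged HSCs with an interaction term. The MPP3s came from young mice, so cell type, age and the set of libraries cannot be told apart in it. None of the 9 genes passed this edgeR test, where 168 of 24553 genes did (0.684%), and 5 had an unadjusted p under 0.05, as did 2131 of the 24553. The estimated effect in MPP3s minus that in middle-aged HSCs was 3.45 ± 1.22 on the log2 scale for Hba-a1 (edgeR adjusted p = 0.339), 3.33 ± 1.13 for Hbb-bs (0.299) and 1.25 ± 0.42 for Hbb-bt (0.285). DESeq2 was not run on this interaction.

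Within a library the beta genes were not in a fixed proportion. Hbb-bt made up 87.26, 94.43, 93.72 and 87.05% of the counts of the beta pair in Y-WT HSCs and 88.34, 94.75, 91.86 and 90.23% in Y-WT MPP3s. In M-WT HSCs it made up 55.57, 32.34, 50.6, 29.43 and 83.64%. The M-WT libraries with the most Hbb-bs were those with the lowest share of Hbb-bt, and all 5 were under the young WT libraries. Counts of Hbb-bs enter the share, so a library with more of them has a lower share unless Hbb-bt rises in proportion.

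The share did not separate the genotypes where it was tested. In middle-aged HSCs the mean share of Hbb-bt was 50.3 ± 21.8% in WT (SD, n = 5) and 56.8 ± 10.1% in TTPdeltaARE (n = 3, two-sided exact permutation p = 0.643). In MPP3s it was 91.3 ± 2.71% in WT and 83.1 ± 12.9% in TTPdeltaARE (n = 4 and 4, two-sided exact permutation p = 0.2), with the TTPdeltaARE libraries at 64.25, 87.99, 86.46 and 93.55%. Without TTPdeltaARE replicate 4 the exact permutation p was 0.0286, the smallest that 4 against 3 libraries allow.

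The share of Hba-a2 in the alpha pair did not separate the genotypes either, at 31.6 ± 5.56% in M-WT HSCs (n = 5) and 28.4 ± 2.88% in M-TTPdeltaARE HSCs (n = 3, exact permutation p = 0.411). In MPP3s it was 30.8 ± 17.1% in WT and 30.5 ± 3.68% in TTPdeltaARE (n = 4 and 4, exact permutation p = 0.971). In Y-WT HSC replicates 3 and 4 0 of 8 counts of the pair came from Hba-a2 in each, which leaves a 95% exact binomial interval of 0 to 36.94%.

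**Figure D3:**
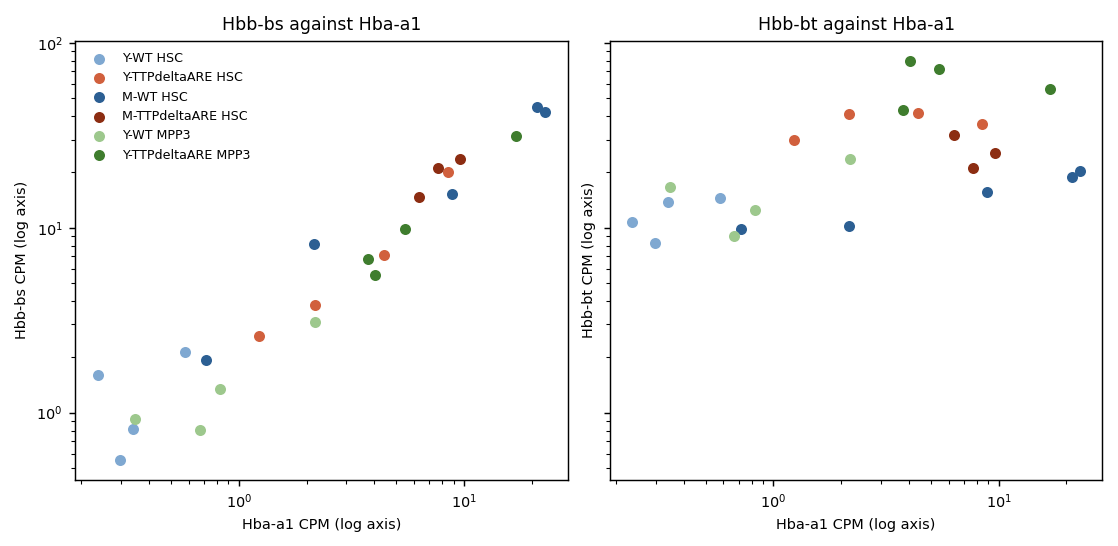
Levels (CPM, log axes) of Hbb-bs (left) and Hbb-bt (right) against Hba-a1, with 1 point per library colored by group. The M-WT HSC libraries reach the highest Hbb-bs (42.3 and 45.2 CPM in replicates 2 and 4) at Hbb-bt levels of 20.2 and 18.9 CPM.

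Over the 24 libraries, with each group's mean log2 CPM removed, Hbb-bs followed Hba-a1 (Pearson's r = 0.941, Spearman's rho = 0.884, permutation p adjusted over 8 relations 8e-05 and 0.00012). So did Hba-a2 (r = 0.863, rho = 0.817, the same adjusted permutation p-values). Leaving out the 2 libraries farthest from the median of Hba-a1 gave r = 0.967 and 0.892. For Hbb-bt the values were r = 0.565 and rho = 0.505 (adjusted permutation p = 0.0534 and 0.109), and r = 0.575 without those libraries. For Hemgn, Klf1, Car2, Gata1 and Car1, r ran from -0.191 to 0.263. All values of a library share its depth and scaling, and the alpha genes share much of their sequence.

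Car1, the carbonic anhydrase isoform that marks early erythroid commitment, was detected in every HSC library. In young HSCs it was at 7.23, 15.2, 18.8 and 15 CPM in WT and at 265.7, 84.8, 180.2 and 72 in TTPdeltaARE. Every TTPdeltaARE library was above every WT library, with a log2 fold change of 3.40 ± 0.46, the difference that chose the gene.

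In MPP3s and middle-aged HSCs the levels of Car1 were scattered and below those of Y-TTPdeltaARE HSCs in every library. In MPP3s it was at 0.141, 9.16, 0.067 and 0 CPM in WT, the last allowing up to 0.0778, and at 56.7, 19.4, 0.614 and 1.97 in TTPdeltaARE. WT replicate 2 lay above TTPdeltaARE replicates 3 and 4, and the log2 fold change of 3.05 ± 1.66 did not pass (edgeR adjusted p = 0.502). Leaving out a library moved it between 1.63 and 8.25.

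In middle-aged HSCs Car1 was at 1.14, 8.79, 0.158, 9.45 and 3.54 CPM in WT and at 8.55, 7.9 and 37.6 in TTPdeltaARE, where replicate 3 alone was above every WT library. The log2 fold change was 1.95 ± 0.85 (edgeR adjusted p = 0.291). Without that replicate it was 0.77 (edgeR adjusted p = 0.691), and with no filter on low counts it passed (edgeR adjusted p = 0.000578). Between MPP3s and HSCs the untested log2 fold changes of Car1 were -2.55 ± 1.31 in WT and -2.98 ± 1.09 in TTPdeltaARE, and with age they were -1.64 ± 0.74 and -3.06 ± 0.65.

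Car2, which encodes the most widely expressed cytosolic carbonic anhydrase, was by far the most abundant member. Per kilobase of exon its mean in Y-WT HSCs was 539 CPM, against 16.9 for Hbb-bt, 15.7 for Hemgn, 11.3 for Car1, 4.64 for Gata1, 2.53 for Klf1, 1.66 for Hbb-bs, 0.447 for Hba-a1 and 0.304 for Hba-a2. In middle-aged HSCs Car2 was at 1205, 1422, 1050, 1280 and 1186 CPM in WT and at 1734, 1904 and 1938 in TTPdeltaARE. The groups did not overlap and Car2 rose 1.47-fold (log2 fold change 0.55 ± 0.08, edgeR adjusted p = 0.00838). Without M-TTPdeltaARE replicate 3 the log2 fold change was 0.49 and the call was lost (edgeR adjusted p = 0.0917). It was also lost in the fit of all 24 libraries (0.60, edgeR adjusted p = 0.176) and with the replicate block (0.55, edgeR adjusted p = 0.0794).

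In MPP3s Car2 was at 1411, 897, 1056 and 1248 CPM in WT and at 985, 1005, 1004 and 1544 in TTPdeltaARE, which overlapped (log2 fold change -0.08 ± 0.15, edgeR adjusted p = 0.875). The genotype effect on Car2 in MPP3s minus that in middle-aged HSCs was -0.61 ± 0.22 on the log2 scale (edgeR adjusted p = 0.337). In young HSCs it ran from 1139 to 1568 CPM in WT and from 1253 to 1682 in TTPdeltaARE, with a log2 fold change of 0.15 ± 0.12. Car2 was lower in MPP3s than in HSCs of TTPdeltaARE mice (log2 fold change -0.51 ± 0.13, edgeR adjusted p = 0.0201), a call that 8 of 16 alternatives lost, while in WT the difference was -0.23 ± 0.16 (edgeR adjusted p = 0.337). With age it did not pass in WT (-0.10 ± 0.10, edgeR adjusted p = 0.519) or TTPdeltaARE (0.32 ± 0.10, edgeR adjusted p = 0.0727).

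Klf1, the factor that switches on adult beta globin, was higher in young TTPdeltaARE HSCs, at 21.2, 7.98, 16.8 and 8.59 CPM, than in young WT HSCs, at 1.7, 5.04, 4.98 and 3.75. The groups did not overlap and the log2 fold change was 1.79 ± 0.41. In these young TTPdeltaARE HSCs replicates 1 and 3 had the highest levels of Car1, Klf1, Hba-a1 and Hbb-bs, while Hbb-bt ran from 29.6 to 41.6 CPM over the 4 libraries.

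In MPP3s Klf1 was at 1.09, 1.68, 1.41 and 1.3 CPM in WT and at 8.69, 2.59, 0.975 and 5.78 in TTPdeltaARE. TTPdeltaARE replicate 3 lay below every WT library, and the log2 fold change of 1.66 ± 0.56 did not pass (edgeR adjusted p = 0.248). It passed in the fit of all 24 libraries (adjusted p = 0.0321) and without that replicate (edgeR adjusted p = 0.0482). In middle-aged HSCs Klf1 was between 1.18 and 1.66 CPM in WT and at 1.6, 2.26 and 2.19 in TTPdeltaARE, where replicate 1 overlapped WT (log2 fold change 0.57 ± 0.24, edgeR adjusted p = 0.268).

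Klf1 fell with age in TTPdeltaARE HSCs, to 0.147 of the young level (log2 fold change -2.77 ± 0.37, edgeR adjusted p = 0.0013). In WT HSCs the change with age was -1.57 ± 0.31 (edgeR adjusted p = 0.00662), and in WT MPP3s against HSCs it was -1.51 ± 0.36 (edgeR adjusted p = 0.0139). Neither was called, since the average logCPM was 1.42 and 1.44. In TTPdeltaARE MPP3s against HSCs the log2 fold change of Klf1 was -1.72 ± 0.58 (edgeR adjusted p = 0.0667). With the replicate number as a block it was -1.87 and was called (edgeR adjusted p = 0.029), and 7 of the 16 alternatives gave a call in all, at log2 fold changes from -2.29 to -1.6.

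Gata1, the factor that erythroid, megakaryocytic and mast cell development requires, was highest in young HSCs of both genotypes. It was at 4.88, 18.4, 14.4 and 7.62 CPM in Y-WT HSCs and at 19.4, 8.19, 20.7 and 17.7 in Y-TTPdeltaARE HSCs, which overlapped (log2 fold change 0.50 ± 0.41). Every other library was between 1.66 and 6.41 CPM.

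Gata1 fell to 0.248 of the HSC level in WT MPP3s (log2 fold change -2.01 ± 0.43, edgeR adjusted p = 0.00771) and to 0.246 in TTPdeltaARE MPP3s (-2.03 ± 0.33, edgeR adjusted p = 0.00195). With age it fell to 0.271 in WT HSCs (-1.88 ± 0.35, edgeR adjusted p = 0.00532) and to 0.184 in TTPdeltaARE HSCs (-2.44 ± 0.34, edgeR adjusted p = 0.00154). These 4 calls held under every alternative run. Between genotypes Gata1 did not pass in middle-aged HSCs (-0.07 ± 0.27, edgeR adjusted p = 0.921) or in MPP3s (0.58 ± 0.36, edgeR adjusted p = 0.549). With age in WT HSCs, Hba-a1, Hba-a2 and Hbb-bs thus rose while Gata1 fell. Summed levels of 8 T cell genes were 34.1 to 55.6 CPM in Y-WT HSCs and 12.9 to 20 in M-WT HSCs, and those of 11 macrophage genes were 91 to 341.7 and 41.3 to 73.5. Those of 14 megakaryocyte genes went the other way, at 1257 to 1466 CPM in Y-WT HSCs and 2071 to 2271 in M-WT HSCs. The part of these cells in the change of Gata1 and Klf1 with age was not tested.

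Hemgn encodes hemogen, a nuclear protein of hematopoietic progenitors, and varied little. It ran from 29.5 to 66 CPM over all libraries. In WT MPP3s it was 1.37-fold higher than in WT HSCs (log2 fold change 0.46 ± 0.12, edgeR adjusted p = 0.0206). This call was lost without Y-WT HSC replicate 3 (edgeR adjusted p = 0.0558) or without Y-WT MPP3 replicate 1 (0.0551), and with library totals in place of TMM factors (0.24, edgeR adjusted p = 0.137).

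In middle-aged HSCs the TTPdeltaARE libraries, at 29.5, 30.6 and 30.3 CPM of Hemgn, were below all WT libraries, at 30.7, 35.4, 37.7, 38.9 and 33. The log2 fold change of -0.27 ± 0.08 did not pass (edgeR adjusted p = 0.128). Hemgn was -0.25 ± 0.13 in MPP3s (edgeR adjusted p = 0.48) and -0.14 ± 0.11 in young HSCs, as log2 fold changes between genotypes. With age it did not pass in WT (-0.17 ± 0.08, edgeR adjusted p = 0.143) or TTPdeltaARE (-0.29 ± 0.10, edgeR adjusted p = 0.118), nor between TTPdeltaARE MPP3s and HSCs (0.29 ± 0.13, edgeR adjusted p = 0.154).

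**Figure D4:**
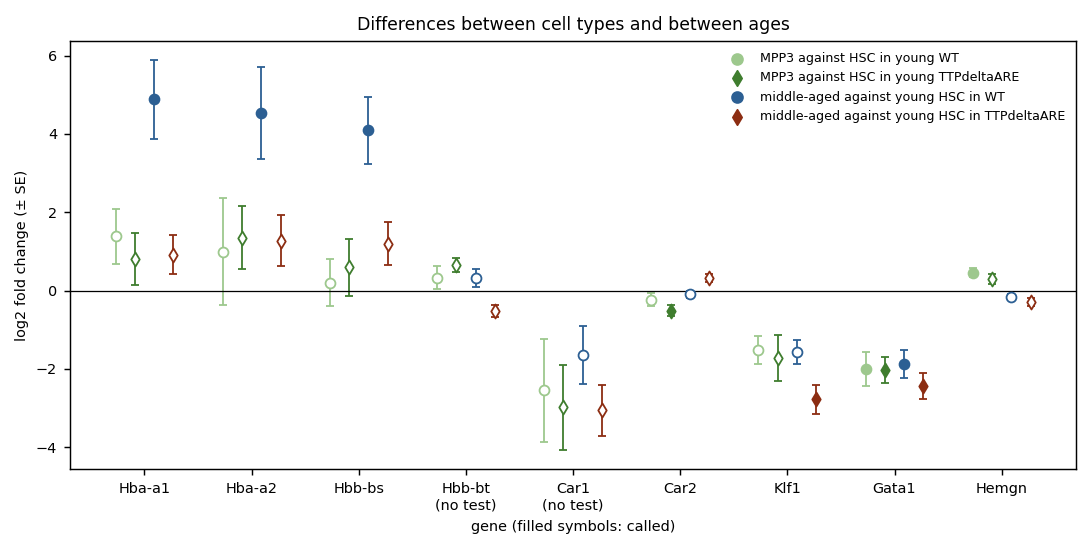
Log2 fold changes, with bars of 1 SE, of the members between MPP3s and HSCs and between middle-aged and young HSCs, in each genotype, from edgeR. Gata1 lies between -2.44 and -1.88 in all 4 comparisons, while Hba-a1 is at 4.88 with age in WT.

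Another 69 genes of the erythroid program, listed as heme synthesis, iron uptake, red cell membrane, regulators, red cell enzymes and other globins, were compared between genotypes. In middle-aged HSCs 61 passed the filter on low counts, and 1 rose and 1 fell, where 1.41% of all genes were called. Lmo2, a regulator that bridges GATA1 and TAL1, rose (log2 fold change 0.28 ± 0.06, edgeR adjusted p = 0.0368). Tfr2, a transferrin receptor, fell (-0.27 ± 0.05, edgeR adjusted p = 0.0276). The median log2 fold change was 0.00168, against 0.00738 for all genes tested. In MPP3s 58 passed the filter, and 2 rose and 1 fell, where 1.71% of all genes were called. The median was 0.0587 against 0.0417. There Tspan33, a tetraspanin of erythroid progenitors, rose (1.25 ± 0.18, edgeR adjusted p = 0.00564), as did Slc25a38, the mitochondrial glycine carrier of heme synthesis (0.62 ± 0.11, edgeR adjusted p = 0.0231). Sox6, which represses embryonic globin, fell (-1.02 ± 0.12, edgeR adjusted p = 0.00195). In young HSCs 0 of 61 were called by edgeR or by DESeq2, and 9 had an unadjusted edgeR p under 0.05 (14.8%, against 7.38% of all genes tested), with a median of 0.0673 against -0.0733. The other globin genes did not pass the filter in any comparison and summed to at most 1.566 CPM in a library.

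Between cell types and ages more of these genes passed, as did more of all genes. In WT MPP3s against HSCs, 9 of 59 rose and 13 fell, where 22.2% of all genes were called, with a median log2 fold change of -0.153 against -0.159 for all genes. Epor, the erythropoietin receptor, fell (-2.88, edgeR adjusted p = 0.00084), as did the water channel gene Aqp1 (-3.39, edgeR adjusted p = 0.000164) and Gata2, the factor that precedes GATA1 (-0.87, edgeR adjusted p = 0.000176). E2f2, a cell cycle factor of maturing erythroblasts (1.77, edgeR adjusted p = 4.31e-05), and Tfrc, the main transferrin receptor (1.01, edgeR adjusted p = 0.000314), rose. Of the 15 red cell membrane genes tested there, 5 fell and 0 rose, where 1755 of all 22816 genes fell and 3314 rose. In TTPdeltaARE, 4 of 60 rose and 15 fell, where 16.3% of all genes were called (median -0.326 against -0.0542), and Epor again fell (-2.64, edgeR adjusted p = 2.23e-05).

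With age in WT HSCs, 6 of 61 rose and 2 fell, where 12.1% of all genes were called (median 0.000687 against -0.0364). Epb41, which encodes the membrane skeleton protein 4.1, rose by a log2 fold change of 0.59, and Rhag, of the Rhesus complex, fell by 1.26. In TTPdeltaARE HSCs 2 of 62 rose and 5 fell, where 8.22% of all genes were called (median -0.0391 against -0.0128), among them Ermap, an erythroid membrane protein (-2.42), and Steap3, the ferrireductase of iron uptake (-1.55).

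**Figure D5:**
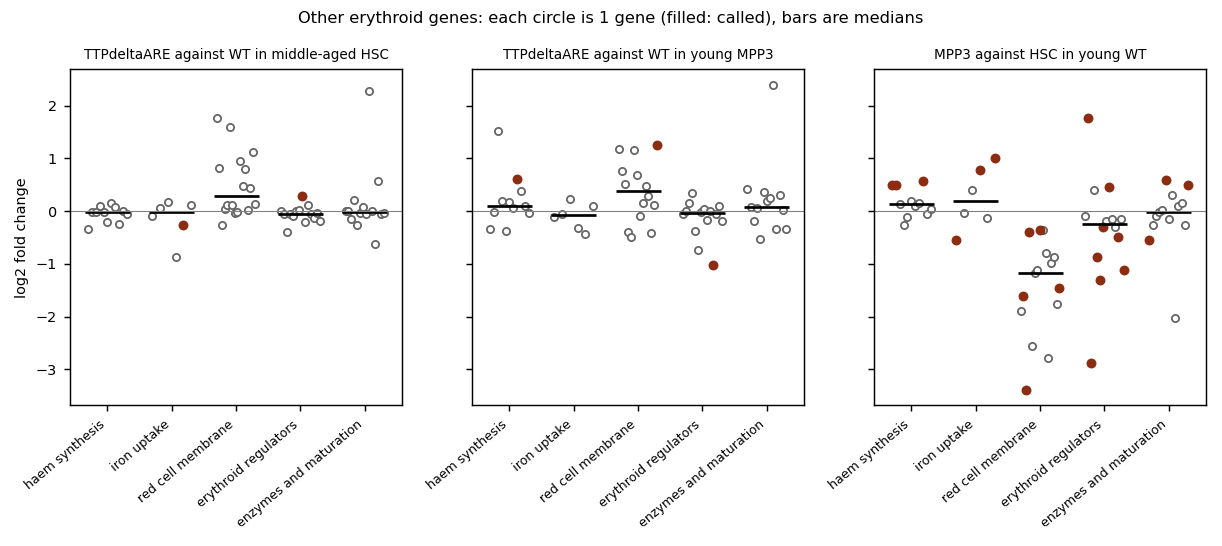
Log2 fold change of each gene of 5 erythroid lists between genotypes in middle-aged HSCs and in MPP3s and between WT MPP3s and HSCs, where circles are genes (filled if called) and bars are list medians. In the last comparison the median of the red cell membrane genes is -1.17 and that of the regulators -0.239.

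The genes with the most similar pattern over the 24 libraries, among 13582 genes of average logCPM over 1.5, were Pfkp (Pearson's r = 0.83), Hk2 (0.816), Mt1 (0.79), Plekho2 (0.783) and Tapbp (0.778) for Hbb-bs. For Car1 they were Tgtp1 (0.803), Ermap (0.786), Cxcr6 (0.778), Il2rb (0.777) and Gbp3 (0.775). For Klf1 they were Il2rb (0.784), Cxcr6 (0.746), Ermap (0.737), Gm28437 (0.732) and Gm10925 (0.713). The libraries share groups, so these correlations carry no test. By Spearman's rho 2 of the 5 genes of Hbb-bs, 4 of Car1 and 1 of Klf1 were again among the 5 highest.

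Markers of other cells also moved with the groups. The T cell sums were 34.1 to 55.6 CPM in Y-WT HSCs and 53.7 to 137.1 in Y-TTPdeltaARE HSCs. In MPP3s they were 39.2 to 47.4 in WT and 69.9 to 85 in TTPdeltaARE. Within Y-TTPdeltaARE HSCs the sums were 133.4, 137.1, 53.7 and 70.2 CPM in replicates 1 to 4, while Car1 and Klf1 were highest in replicates 1 and 3.

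Markers of marrow macrophages, some of which surround and engulf maturing red cells, summed over 11 genes to 70.2 to 301.5 CPM in Y-WT MPP3s and 343.4 to 575.7 in Y-TTPdeltaARE MPP3s. Replicate 1 of the latter, the library with the most Hba-a1, Hba-a2 and Hbb-bs, had the lowest macrophage sum of its group. Mast cell, basophil and eosinophil markers (12 genes) summed to 41.4 to 124.4 CPM in Y-WT MPP3s and 146.8 to 524.6 in Y-TTPdeltaARE MPP3s, and there replicate 1 was the highest. Megakaryocyte markers (14 genes) summed to 601.2 to 739.3 CPM in Y-WT MPP3s and 420.5 to 522.9 in Y-TTPdeltaARE MPP3s. Of the 12 tested in MPP3s 2 fell, where 26 of all 19023 genes did. The sums were 2071 to 2271 CPM in M-WT HSCs and 1762 to 2001 in M-TTPdeltaARE HSCs. Of the 12 tested in middle-aged HSCs 3 fell, where 150 of all 21136 genes did. In middle-aged HSCs macrophage sums were 41.3 to 73.5 CPM in WT and 31.3 to 44.4 in TTPdeltaARE. The part of these lists in the differences of the 9 genes was not tested. In bulk libraries fewer cells of a type and less RNA per cell cannot be told apart.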

How the data were processed

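RNA was purified from sorted cells, and the 24 mRNA-seq libraries were mapped to mm10 with STAR and GENCODE annotation and counted per gene with featureCounts after Trim Galore! and Cutadapt. The labels and the methods name different library kits. The authors deposited raw counts per gene, and strand and the treatment of reads with several matches are not given in the sources used here. Among counts of 1 to 20, between 67.28 and 76.59% were even, so mates of a pair may be counted separately, and binomial intervals and floors cover counting error only.

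The 9 genes and all lists were chosen with earlier results of these data known. Counts were tested in edgeR 4.0.16 (R 4.3.3, quasi-likelihood, TMM factors) on genes that passed filterByExpr, set to at least 10 counts and a total of at least 15. Calls needed an adjusted p under 0.05 over all genes, a fold over 1.2 and an average logCPM over 1.5, the limits of the study's methods. The SE of a log2 fold change is its absolute value over the square root of the F statistic of the edgeR fit. A count of 0 allows up to 3 counts. The interaction was called on the adjusted p alone. Alternatives were DESeq2 1.42.0, the likelihood ratio test, other scaling, no filter, no logCPM limit, a fit of all 24 libraries, a replicate block and each library left out. The study used 3 of the 4 Y-TTPdeltaARE MPP3 libraries, and all 4 entered here. All 9 genes, Zfp36, the called genes of the erythroid lists (at most 4 per list and direction) and the 5 genes most like Hbb-bs, Car1 and Klf1 by log2 CPM (prior count of 2) are named. Relations used 100000 permutations within groups.

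Replicate numbers come from the titles. Same-numbered libraries deviated together at r over 0.1 in every pair (r from 0.16 to 0.26) only between MPP3s and HSCs of young TTPdeltaARE mice. There the block is taken as a pairing, and it changed the call of Klf1. The values, calls and figure of that comparison come from the fit without the block, except where the block is named. These r values were not compared with those of differently numbered libraries. Not every gene of the lists is reported here.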

Additional observations from a re-analysis of the deposited data

Results flagged for a closer look

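Among 45 combinations of a gene and a group of 4 or 5 libraries, 8 had a library far from the others by Dixon's criterion. The criterion flags about 1 in 20 groups of independent, normally distributed values. It was applied to CPM without a log, and genes of a library are related, so that rate need not hold here. Y-TTPdeltaARE MPP3 replicate 1 stood above its group for the 3 globin genes Hba-a1 (16.99 CPM, next highest 5.451), Hba-a2 (7.822, next 2.413) and Hbb-bs (31.26, next 9.889), and its Hbb-bt, at 56.16 CPM, was within the range of the group. Y-WT MPP3 replicate 2 stood apart for Car1 (9.159 CPM, next 0.1411) and for Hemgn (46.49 CPM, lowest of the group, next 57.92). Y-TTPdeltaARE MPP3 replicate 4 stood above its group for Car2 (1544 CPM, next 1005) and Hemgn (65.98 CPM, next 44.56). The TMM factor of that library was 0.7306, against 0.8912 to 0.9679 in the rest of its group. A lower factor raises every CPM of a library, and its part in these 2 flags was not tested. M-WT HSC replicate 5 had the highest Gata1 of its group (4.396 CPM, next 3.001) and the lowest Hba-a1, Hba-a2 and Hbb-bs.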

How the results depend on the processing

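Gata1 between cell types and with age in both genotypes, Hbb-bt between genotypes in MPP3s, Klf1 with age in TTPdeltaARE, and Hba-a1 and Hbb-bs with age in WT kept direction and call under every alternative run. No number of members called is given for young HSCs, because the genes were chosen on these libraries. Between genotypes in middle-aged HSCs the number of members called moved to 2 with DESeq2 and 3 with no filter. It moved to 0 in the fit of all 24 libraries, where Car2 was at 0.60 (edgeR adjusted p = 0.176). With the replicate block it was also 0 (Car2 edgeR adjusted p = 0.0794). In MPP3s it moved to 4 in the fit of all 24 libraries. With age in TTPdeltaARE it moved to 4 with DESeq2 and 5 with no filter. With each library left out in turn the number called between genotypes was 0 to 1 in middle-aged HSCs and 1 to 3 in MPP3s. In WT and TTPdeltaARE it was 1 to 3 and 1 to 2 between cell types, and 3 to 5 and 2 to 4 with age. The genotype difference in the share of Hbb-bt ran from 0.6408 to 14.78 percentage points in middle-aged HSCs without a library, or 15.92 on summed counts, and from -11.73 to -1.962 in MPP3s, and that of Hba-a2 from -4.865 to -1.082 and from -6.856 to 6.9, or 1.089 on summed counts in MPP3s. Uncalled log2 fold changes that crossed 0 without a library were Hbb-bs (-0.51 to 0.18; 0.1 with the replicate block) and Gata1 (-0.4 to 0.14) between genotypes in middle-aged HSCs, Car2 in MPP3s (-0.19 to 0.01), Hbb-bs between cell types in WT (-0.33 to 0.66) and TTPdeltaARE (-0.33 to 1.46), Hba-a1 between cell types in TTPdeltaARE (-0.03 to 1.43) and Car2 with age in WT (-0.16 to 0.03). The cause of these changes was not tested.

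Over all genes, calls between genotypes in middle-aged HSCs were 298, and 823 with DESeq2, 842 with no filter, 53 in the fit of all 24 libraries, 108 with the replicate block and 68 to 299 without a library. In MPP3s they were 326, and 768 with DESeq2, 540 with the likelihood ratio test, 1244 with all libraries and 185 to 347 without a library, with 92% higher, or 73.6% with DESeq2 and 53.4% with all libraries. In young HSCs they were 6, and 304 with DESeq2, 146 with the likelihood ratio test, 73 with no filter, 18 with all libraries and 0 to 12 without a library. Between cell types in TTPdeltaARE they were 3500, and 5747 with all libraries and 2313 to 4013 without a library. In WT they were 5069, and 3623 to 6499 without a library. With age they were 1918 in TTPdeltaARE, and 805 with all libraries, 914 with the block and 907 to 1858 without a library, and 2691 in WT, and 1580 with the block, 4053 with no logCPM limit and 1990 to 3658 without a library. Library totals in place of TMM factors moved the share of higher calls from 49.7 to 62.9% between genotypes in middle-aged HSCs, from 65.4 to 34.3% and 55.7 to 36.7% between cell types in WT and TTPdeltaARE, and from 69.4 to 48.4% with age in WT. The median of all genes moved with them from -0.159 to -0.379 and from -0.0542 to -0.198 between cell types. Outside the pair of groups named in the methods, same-numbered libraries did not reach r over 0.1 in every pair (r from -0.13 to 0.21, and 0.071 to 0.21 between cell types in WT), and the block there changed the call of Car2 in middle-aged HSCs and of Hba-a1 in MPP3s (adjusted p = 0.0136). Values of under 1 CPM rest on few counts.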
